A study of Mus musculus with 2 samples.

Results

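Germ cells of XX foetal mouse gonads after 72 h in DMSO were compared with germ cells of XX gonads after 24 h in DMSO. The groups were taken by library name, 4 libraries each, and are 8 of the 40 germ cell libraries measured. E12.5 gonads were cultured with the mesonephros attached, which was removed after culture, and gonads of several embryos were pooled for each sample before germ cells were sorted by their eGFP reporter. All animals were wild type, from ASMU Swiss and Oct4(Pou5fl)-eGFP parents with a 129svJT2 background, and both groups received the vehicle DMSO and no inhibitor. The 24 h libraries were made in pool 1 and the 72 h libraries in pool 2, so the time in culture and the pool cannot be told apart for any gene of this contrast. Levels in XX germ cells before culture (0 h, pool 1) are given beside the members as values. XY germ cells after 24 h (pool 1) and 72 h (pool 2) in DMSO crossed the same pools, and the difference between the XX and the XY change was tested as well.

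Foetal germ cells of XX gonads leave the mitotic cycle, switch off the pluripotency network they share with embryonic stem cells and enter meiosis. BMP signals and retinoic acid act upstream, and STRA8 with its partner MEIOSIN switches on meiotic genes. In the prophase that follows, homologous chromosomes are organised on axes of cohesin and HORMA proteins, SPO11 cuts DNA, the cuts are repaired on the partner by DMC1 and its helpers, and the synaptonemal complex joins the pairs. The first factors of the oocyte programme appear in the same cells.

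Total counts were 2061341 to 3117235 in the XX 24 h libraries and 1475175 to 2047565 in the XX 72 h libraries, after collapse by molecular identifier. Levels below are CPM, that is counts over library sizes adjusted by TMM (trimmed mean of M-values), in the order replicates 4, 5, 6 and 9 at 24 h and replicates 11, 4, 7 and 8 at 72 h. Reads were primed at the poly(A) tail and counts are not divided by length, so levels are compared between libraries and not between genes. Changes are log2 fold changes of 72 h over 24 h with their standard error, and means are given with the SD of 4 libraries. In bulk RNA, fewer cells of a type and less RNA per cell cannot be told apart. The labels do not tie the replicates of a group to separate cultures, so p-values measure the spread between these samples, which may be technical.

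The label was checked with markers of germ cells. Ddx4, a germ cell RNA helicase, was at 364, 415, 472 and 343 CPM at 24 h and at 384, 354, 377 and 407 CPM at 72 h. Dazl, which encodes a germ cell RNA-binding protein, was at 1336, 1537, 1543 and 1436 CPM at 24 h and at 1506, 1506, 1306 and 1339 CPM at 72 h. The groups overlapped for both genes, and neither Ddx4 (-0.02 ± 0.10) nor Dazl (-0.04 ± 0.10) was called changed. Of the 15 genes of the germ cell identity list, 8 fell and 1 rose, against 11.9% lower and 10.3% higher of all genes. The list median was -2.0 (-3.06 with the shared index subtracted). Those that fell were Dppa3, Pou5f1, Dnd1, Tfap2c, Kit, Prdm1, Ifitm3 and Sall4, and Mael rose.

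XX 24 h replicate 6 stood apart from the other 24 h libraries. On the principal component that took 83.7% of the variance of the 8 libraries it lay at -32.3, against -49.7 to -54.8 for the other 24 h libraries and 43.9 to 52.7 for the 72 h libraries. It was the highest of the 4 in 1049 of the 1578 genes called higher at 72 h (66.5%) and the lowest in 1031 of the 1815 genes called lower (56.8%). It also had the fewest counts of the group and the most Y-linked counts, 39 against 13 to 18. Without it, 1702 genes were called higher and 1970 lower.

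Each XX library shared its sample index with a library of the other pool. The XX 24 h libraries shared theirs with XY 72 h FGFRi libraries, and their Y-linked counts came to 5.42, 3.81, 4.46 and 3.28% of those of the partner. The XX 72 h libraries shared theirs with XX 0 h libraries, for which Y-linked genes give no share. Without an XY partner, the XX 0 h and 72 h libraries still held 3 to 8 and 5 to 9 Y-linked counts. These were not allowed for, so the shares above may be too high. All fits were repeated after such a share of the partner's counts was taken from each library that had a partner, with 4.13%, the median, where no share could be had, and the values are given below as "with the shared index subtracted". Counts that fell below 0 were set to 0, so large folds with the subtraction can lie at that floor. Of the genes called, 1569 of 1578 higher and 1748 of 1815 lower were called the same way, where 12.4% and 13.7% of all genes were called. A single called gene turned its sign, the X-linked Gm3858, from -2.37 to 2.73, which was not called.

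Of 15252 genes tested, 1578 were higher (10.3%) and 1815 lower (11.9%) at 72 h than at 24 h, by limma's treat test against a fold of 1.5 with an adjusted p under 0.05, together 22.2%. The log2 fold change was over 2 in 660 of the higher genes and under -2 in 689 of the lower ones. The 4 libraries of each group did not overlap those of the other in 1523 of the higher and 1742 of the lower genes, against 45.3% of all genes tested. The median log2 fold change over all genes was -0.10, and 0.01 when libraries were scaled by RLE, a shift of 0.11. RLE scaling called 1910 genes higher and 1520 lower, and all 1578 higher genes were among the former.

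XY 24 h FGFRi (pool 2) and XY 24 h DMSO (pool 1) lie in different pools at 1 time and also differ in the FGF receptor inhibitor. Between them 40 genes were called (0.262%), while 9.93% of all genes were more than 1.5-fold higher and 10.1% more than 1.5-fold lower without regard to the test. Of the 1578 genes called higher in XX, 296 passed 1.5-fold the same way there and 148 the other way. For the 1815 lower genes the counts were 214 and 144. The part of the pool in the XX contrast was not tested.

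Lists for cohesin, the synaptonemal complex and axis, double-strand breaks, strand exchange, crossovers and telomere attachment together hold 98 genes, of which 94 were tested. Of these, 40 rose and 6 fell, against 10.3% higher and 11.9% lower of all genes. The median log2 fold change of the 94 was 0.63. The counts differed among the steps. In the synaptonemal complex and axis 10 of 11 genes rose and in break formation 9 of 12, with 0 lower in both, whereas strand exchange had 6 higher and 3 lower of 23.

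**Figure D1:**
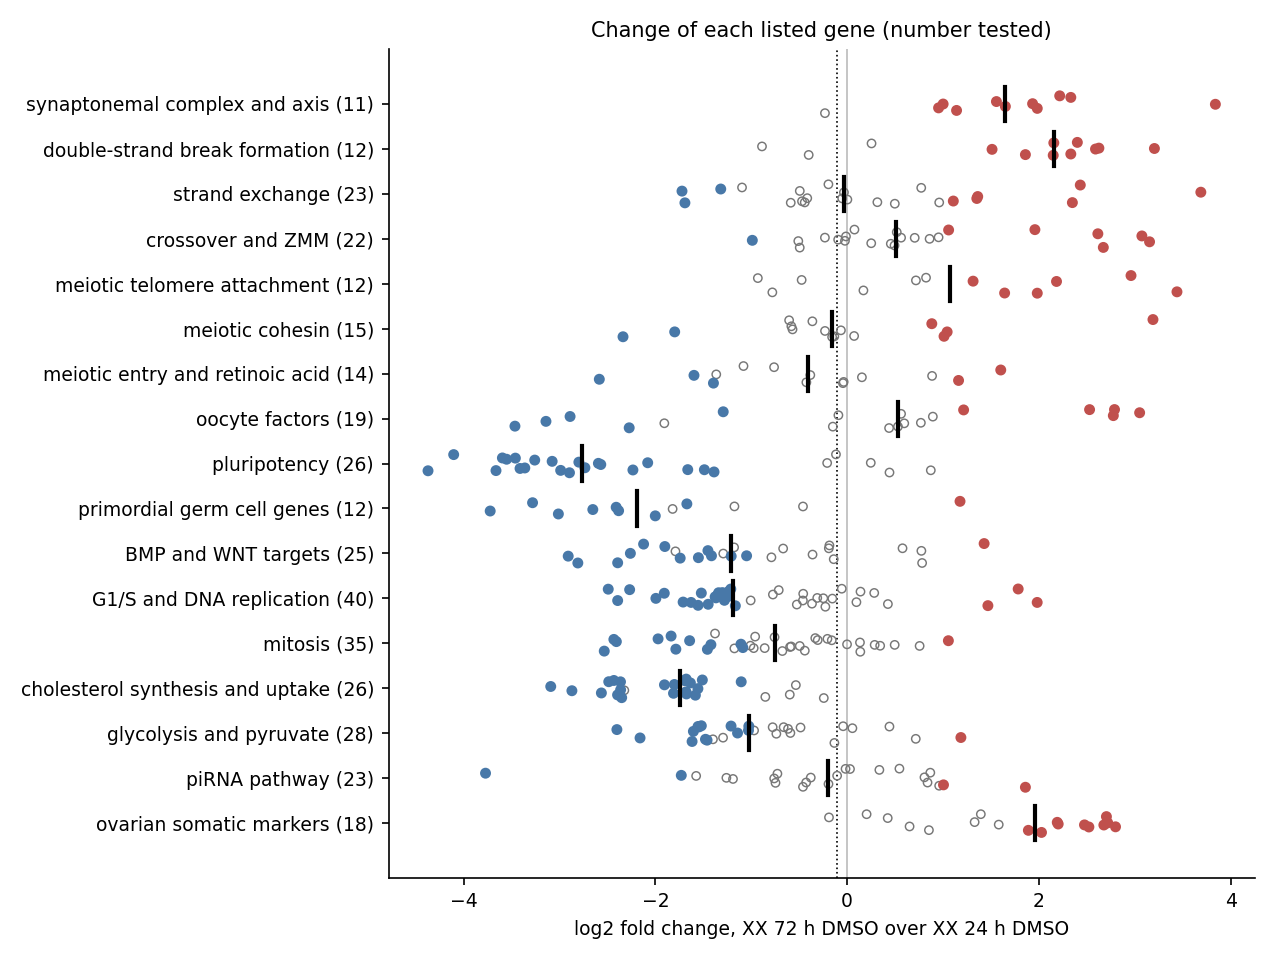
Log2 fold change of each listed gene in XX germ cells, 72 h over 24 h in DMSO, on the horizontal axis, with the lists in rows; filled red and blue points were called higher and lower, open points were not called, black bars are list medians and the dotted line is the median of all genes, -0.10. Synaptonemal complex and break genes lie to the right, with medians of 1.65 and 2.15, and pluripotency and cholesterol genes to the left, with medians of -2.77 and -1.75.

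Stra8, the regulator of meiotic entry, was at 92.7 CPM at 0 h, at 775, 938, 1353 and 823 CPM at 24 h and at 851, 781, 553 and 598 CPM at 72 h. The 24 and 72 h libraries overlapped, and the change of Stra8 (-0.38 ± 0.15) was not called. Its partner Meiosin was at 11.2, 8.98, 22.8 and 8.38 CPM at 24 h and at 30.0, 44.9, 17.4 and 35.6 CPM at 72 h. It rose by 1.6 ± 0.27 (limma adjusted p = 0.00179), with 24 h replicate 6 above 72 h replicate 7. Meioc, which is needed to hold germ cells in meiotic prophase, rose from 179 to 365 CPM (1.16 ± 0.13). Of 14 genes tested for entry and retinoic acid, 2 rose and 3 fell, against 10.3% higher and 11.9% lower of all genes. Those that fell were Dmrt1, a DM domain factor of the germ line (-2.58 ± 0.20), the retinoic acid receptor Rara (-1.6 ± 0.26) and the retinoic acid binding protein Crabp1 (-1.39 ± 0.24). The retinoic acid hydroxylase genes Cyp26a1 and Cyp26b1 were too low to test.

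Of 15 cohesin genes, 4 rose, 2 fell and 9 were not called, against 10.3% higher and 11.9% lower of all genes. Rec8, the meiotic kleisin that holds sister chromatids, was at 315, 299.7, 379 and 345 CPM at 24 h and at 98.0, 60.9, 84.3 and 40.1 CPM at 72 h, after 81.0 CPM at 0 h. All 72 h libraries lay below all 24 h libraries (-2.34 ± 0.15, limma adjusted p = 6.55e-14). Rad21l, another meiotic kleisin, went the other way, from 7.78, 4.25, 11.4 and 8.78 CPM to 75.5, 73.8, 41.5 and 72.5 CPM (3.19 ± 0.30, limma adjusted p = 2.53e-10). The mitotic kleisin Rad21 fell from 188 ± 48.1 to 55.3 ± 17.6 CPM (-1.80 ± 0.18). The other genes of the list that rose were the meiotic Smc1b (1.04 ± 0.12) and Stag3 (0.88 ± 0.10) and the loader Nipbl (1.01 ± 0.09).

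Structural genes of the synaptonemal complex rose together. Sycp1, its transverse filament, was at 550.1, 485, 751 and 533 CPM at 24 h and at 2105, 2292, 2109 and 2196 CPM at 72 h (1.98 ± 0.10, limma adjusted p = 2.01e-16). Syce3, a protein of its central element, was at 27.4, 28.8, 68.4 and 25.9 CPM and then at 498, 487, 322 and 444 CPM (3.84 ± 0.18, limma adjusted p = 7.47e-21). In both genes 24 h replicate 6 was the highest of its group and below every 72 h library. The axis proteins Sycp3 (549 to 1890.3 CPM, 1.93 ± 0.13) and Sycp2 (202 to 838 CPM, 2.22 ± 0.12) rose, as did Syce1 (0.95), Syce2 (1.14), Tex12 (1.65), Hormad1 (1.56), Hormad2 (1.00) and Iho1 (2.33), the last an axis partner of the break machinery. Trip13, the ATPase that takes HORMA proteins off the axis, was the exception at -0.23 ± 0.13 and was not called.

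Next come the genes that make and place the breaks. Spo11, the nuclease, was at 6.53, 7.09, 7.93 and 5.59 CPM at 24 h and at 25.7, 26.8, 32.1 and 36.2 CPM at 72 h (2.16 ± 0.31, limma adjusted p = 4.5e-05). Prdm9, the methyltransferase that marks the hotspots, was at 101, 53.9, 198 and 68.6 CPM and then at 811, 732, 734 and 769 CPM (3.20 ± 0.16, limma adjusted p = 3.3e-19). The groups did not overlap for either gene, and the 24 h libraries of Prdm9 were spread more widely than those at 72 h, with replicate 6 the highest. The readers of its mark rose too, Zcwpw1 from 664 to 1772 CPM (1.51 ± 0.10) and Zcwpw2 from 62.6 to 324 CPM (2.63 ± 0.15). Of the break machinery Ankrd31 (2.59), Top6bl (2.40) and Mei1 (2.15) rose, as did Tex15 (1.86), and Mei4, Rec114 and Hells were not called.

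Promoters were searched for letters of factors known to control such genes, to set sequences beside the changes. The letters were CNCCTCAG for STRA8 and MEIOSIN, CACGTG for MGA and MAX, which repress meiotic genes in stem cells, and GCGGGAA for E2F, on both strands of 250 bases before to 50 after the start (GENCODE M39, GRCm39). CNCCTCAG stood in 4 of the 40 meiotic promoters called higher (10%), against 8.13% of 15011 promoters read. CACGTG stood in 8 of the 40 (20%) against 9.39% of all, and GCGGGAA in 13 (32.5%) against 7.23%. In the 54 meiotic promoters not called higher the shares were 9.26%, 9.26% and 18.5%. For the 21 replication genes called lower, described below, GCGGGAA stood in 7 (33.3%), CNCCTCAG in 5 (23.8%) and CACGTG in 1 (4.76%). These are counts of letters, not of bound sites.

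Windows of 100 bases, 5′ to 3′ in the direction of the gene, are shown for 3 break and crossover genes with the STRA8 and MEIOSIN letters in capitals (read on the opposite strand in Msh5). They lie on chr17:15784615-15784714, minus strand (Prdm9), chr2:172821511-172821610, plus strand (Spo11) and chr17:35265599-35265698, minus strand (Msh5), all GRCm39.
Prdm9: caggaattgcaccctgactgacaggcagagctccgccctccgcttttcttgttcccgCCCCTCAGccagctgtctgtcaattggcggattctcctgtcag
Spo11: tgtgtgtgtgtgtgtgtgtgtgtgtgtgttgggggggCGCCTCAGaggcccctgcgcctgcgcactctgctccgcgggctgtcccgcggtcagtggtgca
Msh5: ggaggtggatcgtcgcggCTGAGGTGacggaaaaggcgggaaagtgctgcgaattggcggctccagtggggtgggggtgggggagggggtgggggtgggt

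The letters begin at positions -43, -63 and -82 from the start in Prdm9, Spo11 and Msh5. In Prdm9 they share 1 base with the E2F letters, read on the opposite strand at position -49. For 3 genes of the synaptonemal complex and axis the windows are shown with CACGTG in capitals. They lie on chr10:88295331-88295430, plus strand (Sycp3), chr3:102843456-102843555, minus strand (Sycp1) and chr3:95466839-95466938, plus strand (Hormad1).
Sycp3: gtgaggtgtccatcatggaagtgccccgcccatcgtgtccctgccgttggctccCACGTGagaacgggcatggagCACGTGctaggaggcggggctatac
Sycp1: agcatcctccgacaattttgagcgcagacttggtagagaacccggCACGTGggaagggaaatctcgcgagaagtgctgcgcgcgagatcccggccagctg
Hormad1: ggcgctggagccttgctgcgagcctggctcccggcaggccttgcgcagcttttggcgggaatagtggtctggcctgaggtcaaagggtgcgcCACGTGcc

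Sycp3 holds CACGTG at positions -46 and -25, Sycp1 at -55 and Hormad1 at -8. Outside the windows shown, the searched promoters hold it at -248 in Sycp1 and at 29 in Hormad1, and the STRA8 and MEIOSIN letters at 12 in Prdm9. The 6 genes shown were chosen among meiotic genes called higher, so their rise says nothing about the letters. Their log2 fold changes were from 1.56 (Hormad1) to 3.20 (Prdm9).

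Of 23 strand exchange genes, 6 rose, 3 fell and 14 were not called, against 10.3% higher and 11.9% lower of all genes. Dmc1, the meiotic recombinase, was at 41.4, 31.2, 72.8 and 31.5 CPM at 24 h and at 229.7, 170.4, 233 and 206 CPM at 72 h (2.43 ± 0.17, limma adjusted p = 4.05e-13). Its groups did not overlap, and 24 h replicate 6 again stood highest of its group. Rad51ap2 (3.69 ± 0.24), Meiob (2.35 ± 0.16), Brme1 (1.36 ± 0.14), Mcmdc2 (1.35 ± 0.26) and Brca2 (1.11 ± 0.12) rose. The single-strand binding proteins Rpa1 (-1.72 ± 0.15) and Rpa2 (-1.69 ± 0.12) fell, as did Rad54l (-1.32 ± 0.15).

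Of 22 crossover genes, 6 rose and Exo1 fell (-0.99 ± 0.15), against 10.3% higher and 11.9% lower of all genes. Msh5, which with MSH4 holds crossover intermediates, was at 24.3, 25.5, 55.5 and 23.9 CPM at 24 h and at 241, 203, 286 and 228 CPM at 72 h (3.07 ± 0.17, limma adjusted p = 2.89e-18). The groups did not overlap. Shoc1 (3.15), Rnf212 (2.67), Hfm1 (2.61), Msh4 (1.96) and Tex11 (1.06) were the others that rose. Mlh3 (0.56 ± 0.14), which acts late on crossovers, was not called.

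Telomeres are tied to the nuclear envelope in early prophase so that chromosomes can move. Terb1, a protein of this link, was at 35.5, 21.7, 62.9 and 23.1 CPM at 24 h and at 332, 301, 308 and 335 CPM at 72 h (3.44 ± 0.18, limma adjusted p = 3.3e-19). Every 72 h library was above every 24 h library. Spdya, an activator of CDK2 at telomeres, went from 52.2 ± 30.8 to 325 ± 33.0 CPM (2.96 ± 0.16). Majin (2.18), Kash5 (1.64), Terb2 (1.31) and the general lamin gene Lmna (1.98) rose, and Sun1 was not called (0.82 ± 0.12).

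**Figure D2:**
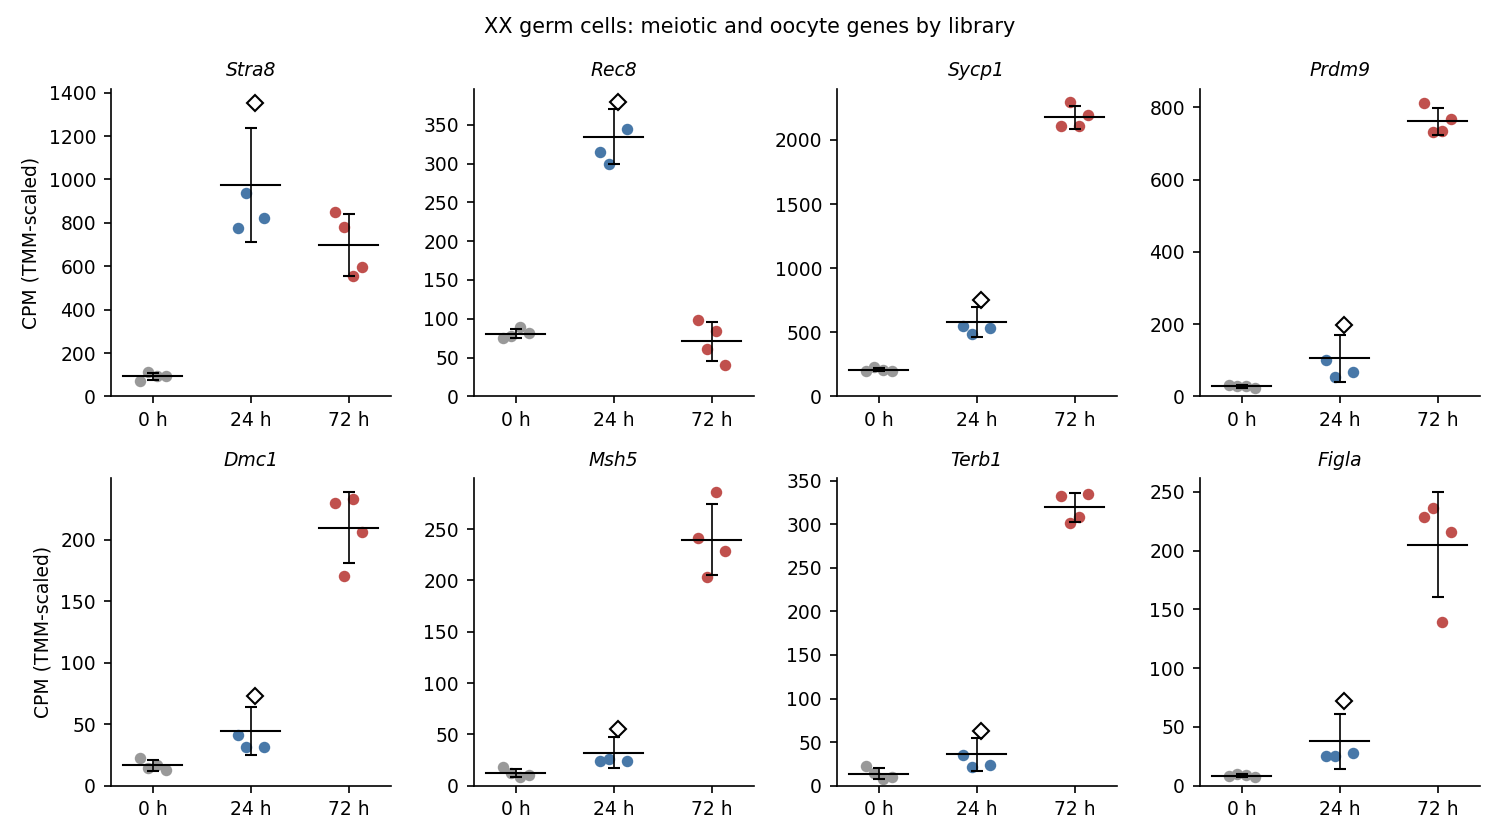
CPM in each XX library at 0, 24 and 72 h for 8 genes of meiosis and the oocyte; points are libraries, bars are the mean ± SD of 4, and the open diamond is 24 h replicate 6. Stra8 overlaps between 24 and 72 h, Rec8 has means of 335 and 70.8 CPM, and the other 6 genes are higher in every 72 h library than in any 24 h library.

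Among 19 genes of the meiotic checkpoints, 3 rose and 2 fell, against 10.3% and 11.9% of all genes. Ccnb3, an X-linked cyclin of meiosis, went from 25.2, 21.7, 51.5 and 25.1 CPM to 203, 315, 167 and 332 CPM (3.25 ± 0.20, limma adjusted p = 4.15e-16). Atr, a kinase that acts on unsynapsed axes, rose from 187 to 584 CPM (1.65 ± 0.10), and Rad9b, a clamp subunit, rose by 1.41 ± 0.14. Trp53 was at 127, 119.6, 61.4 and 111 CPM at 24 h and at 20.3, 17.6, 22.1 and 19.4 CPM at 72 h (-2.44 ± 0.22, limma adjusted p = 6.93e-10, and -5.60 with the shared index subtracted). Its target Cdkn1a fell too (-1.70 ± 0.32), and Chek2, a kinase of the damage checkpoint, was not called (-1.18 ± 0.32).

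The pluripotency network went down almost as a whole. Of 26 genes tested 21 fell and 0 rose, against 11.9% lower and 10.3% higher of all genes. The median log2 fold change was -2.77, and Klf4, Tfcp2l1, Lin28b, Sox3 and Phc1 were not called. Sox2 was at 269, 259, 179 and 255 CPM at 24 h and at 31.6, 26.8, 20.1 and 14.9 CPM at 72 h, after 374 CPM at 0 h (-3.41 ± 0.22, limma adjusted p = 9.3e-16). Pou5f1, which encodes OCT4 and whose regulatory sequence drives the reporter of the sort, was at 50.1, 62.9, 54.5 and 55.5 CPM and then at 9.64, 11.9, 6.69 and 5.18 CPM (-2.73 ± 0.29, limma adjusted p = 2.52e-08). Neither gene had overlapping groups.

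Sall4 went from 259, 312, 275 and 238 CPM to 23.0, 21.7, 32.8 and 14.9 CPM (-3.66 ± 0.29). Nanog (-3.60 ± 0.56), Utf1 (-3.26 ± 0.23), Dppa2 (-4.10 ± 0.56), Dppa4 (-2.99 ± 0.20), Prdm14 (-3.08 ± 0.41) and Lin28a (-2.80 ± 0.33) fell with it. The means of these genes were higher at 0 h than at 24 h, and the 72 h libraries share indices with 0 h libraries. With the shared index subtracted the median of the list was -5.08, Sox2 was at -7.30, Pou5f1 at -4.69 and Sall4 at -9.04, and 21 genes were again called lower. The share taken from the 72 h libraries was assumed, and counts were cut at 0, so the size of these folds is not a measured one.

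In the list for primordial germ cells 8 of 12 genes fell and 1 rose, against 11.9% lower and 10.3% higher of all genes. Tfap2c (-3.72 ± 0.47) and Prdm1 (-2.65 ± 0.39), which specify the germ line, alkaline phosphatase Alpl (-3.28 ± 0.27), Ifitm1 (-2.41 ± 0.16), Ifitm3 (-2.38 ± 0.24), Epcam (-1.67 ± 0.14) and the receptor Kit (-2.0 ± 0.23) fell. The integrin Itga6 rose from 46.1 ± 14.1 to 106 ± 21.2 CPM (1.18 ± 0.18). Dnd1, an RNA-binding protein that protects germ cells, fell by -3.01 ± 0.28. Dppa3, a maternal factor of the egg, was at 629, 928, 599 and 716 CPM at 24 h and at 103, 119, 69.6 and 93.2 CPM at 72 h (-2.89 ± 0.21, limma adjusted p = 4.75e-13). Dppa3 overlaps Gdf3 on the opposite strand, and Gdf3 fell too (-4.37 ± 0.63).

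**Figure D3:**
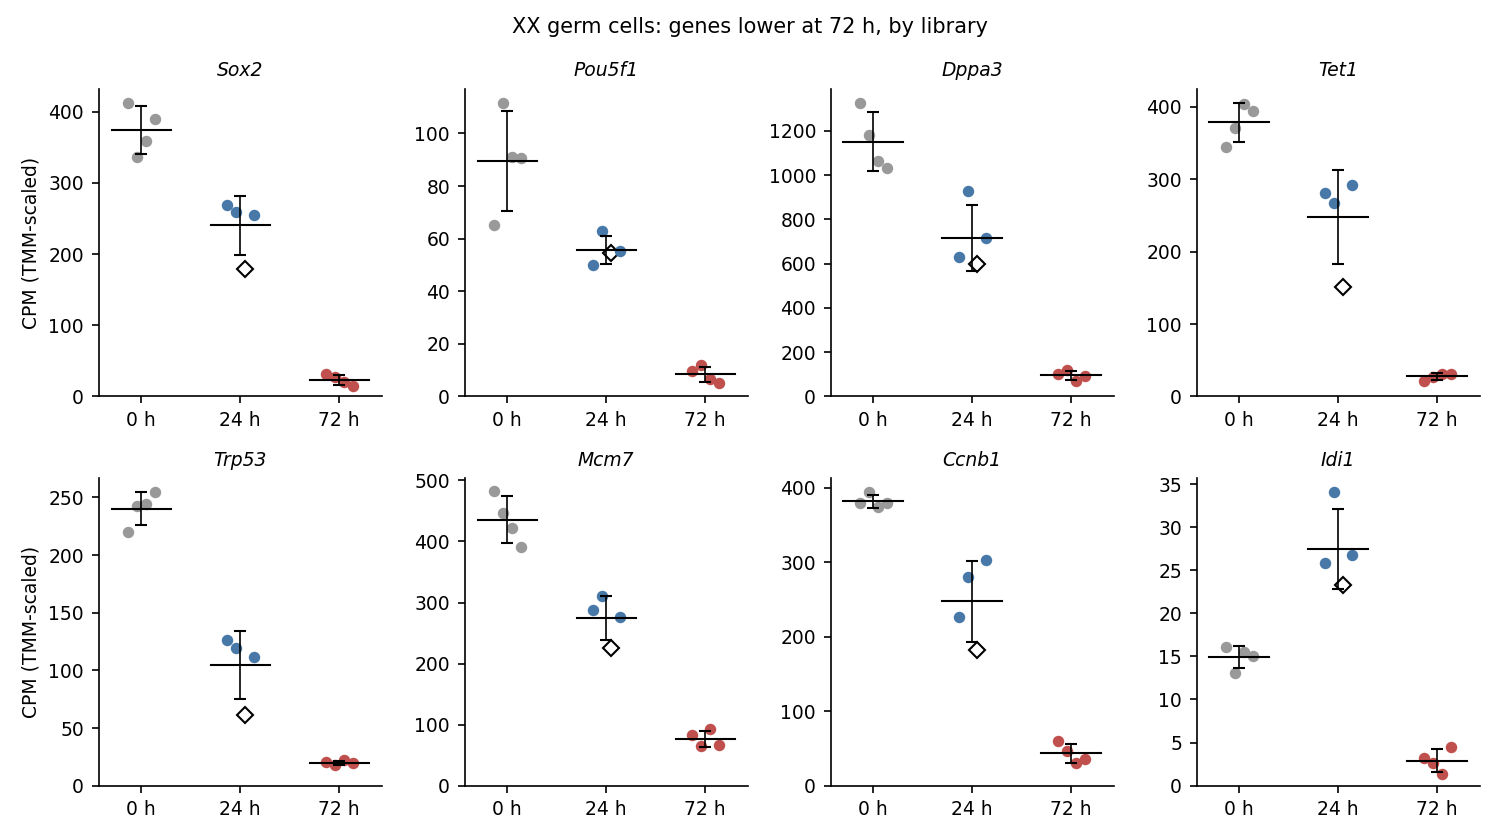
CPM in each XX library at 0, 24 and 72 h for 8 genes that were lower at 72 h; points are libraries, bars are the mean ± SD of 4, and the open diamond is 24 h replicate 6. Every 72 h library lies below every 24 h library in each panel, and Idi1 is the only one of the 8 with a higher mean at 24 h than at 0 h.

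DNA methylation genes had 0 higher and 3 lower of 13, against 10.3% higher and 11.9% lower of all genes. Tet1, which oxidises 5-methylcytosine, was at 280.4, 267, 151 and 292 CPM at 24 h and at 21.4, 27.4, 31.4 and 30.4 CPM at 72 h (-3.23 ± 0.24, limma adjusted p = 2.54e-13, and -6.59 with the shared index subtracted). Dnmt1, the maintenance enzyme, fell from 335 ± 32.4 to 157 ± 9.71 CPM (-1.11 ± 0.11). Dnmt3a was called at -0.93 ± 0.13 (limma adjusted p = 0.0255), and not called with the shared index subtracted (-0.71). The Polycomb and related repressor list had 1 higher and 5 lower of 28, against 10.3% higher and 11.9% lower of all genes. Cbx2 (-2.01 ± 0.24), Pcgf2 (-1.92 ± 0.35), Ehmt2 (-1.18 ± 0.13), Hdac2 (-1.14 ± 0.12) and Tfdp1 (-1.10 ± 0.13) fell, and Setdb1 rose (0.95 ± 0.12).

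Of 40 genes of the G1/S step and DNA replication 21 fell and 3 rose, against 11.9% lower and 10.3% higher of all genes. The list median was -1.19. Mcm7, a subunit of the replicative helicase, was at 288, 311, 225 and 276 CPM at 24 h and at 82.4, 65.6, 93.0 and 67.3 CPM at 72 h (-1.91 ± 0.12, limma adjusted p = 2.85e-13). Mcm2 (-1.71), Mcm3 (-1.38), Mcm4 (-1.21) and Mcm6 (-1.30) fell too, and Mcm5 was not called (0.28 ± 0.12). The licensing factor Cdt1 (-1.99), the nucleotide enzymes Tyms (-2.27) and Rrm2 (-1.63) and the cyclin Ccnd1 (-2.39) were others that fell.

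Ccne2, a cyclin of CDK2, was at 130.4, 109.7, 255 and 112 CPM at 24 h and at 597, 452, 492 and 521 CPM at 72 h (1.98 ± 0.15, limma adjusted p = 3.81e-11). Its groups did not overlap. Ccnd2 (1.78 ± 0.28) and Gins3 (1.47 ± 0.17) were the other genes of the list that rose, while Ccne1 fell (-1.34 ± 0.24).

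The mitosis list had 11 lower, 1 higher and 23 not called, against 11.9% lower and 10.3% higher of all genes. Ccnb1 was at 226, 279.8, 182 and 303 CPM at 24 h and at 60.0, 47.0, 30.8 and 35.6 CPM at 72 h (-2.53 ± 0.18, limma adjusted p = 5.79e-13), and Cenpa (-2.43), Ube2c (-2.41), Plk1 (-1.97), Ccnb2 (-1.64) and Aurka (-1.42) fell. The kinetochore kinase Bub1 rose from 213 ± 24.2 to 427 ± 52.6 CPM (1.06 ± 0.11). Mki67, a marker of cycling cells, was at 386, 294, 226 and 307 CPM and then at 406, 332, 363 and 382 CPM, with overlapping groups (0.29 ± 0.14), and neither it nor Top2a (0.13 ± 0.10) was called. Among 14 cell cycle inhibitors, Cdkn2c rose (2.07 ± 0.43) and Cdkn1a and Cdkn2d (-1.40 ± 0.17) fell, against 10.3% and 11.9% of all genes.

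Cholesterol synthesis and uptake fell in 21 of 26 genes, with 0 higher and a median of -1.75. Of all genes 11.9% were lower and 10.3% higher. Idi1, an isomerase of the isoprenoid steps, was at 25.8, 34.0, 23.3 and 26.7 CPM at 24 h and at 3.21, 2.58, 1.34 and 4.53 CPM at 72 h (-3.09 ± 0.37, limma adjusted p = 1.13e-07). The groups did not overlap, and 24 h replicate 6 was the lowest of its group in 19 of the 21 genes, this one among them. Among all genes called lower it was the lowest in 56.8%. The transcription factor gene Srebf2 fell (-1.80 ± 0.18), and Insig1, Abca1, Sc5d and Tm7sf2 were not called.

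Of 28 genes of glycolysis and pyruvate 13 fell and 1 rose (median -1.03), against 11.9% lower and 10.3% higher of all genes. Hexokinase Hk1 (-2.16 ± 0.40), Eno1 (-1.62 ± 0.17), Aldoa (-1.54 ± 0.13), Ldha (-1.21 ± 0.21) and Pkm (-1.03 ± 0.12) fell. Mpc1, a carrier of pyruvate into mitochondria, rose by 1.19 ± 0.22, with overlapping groups. The 13 mitochondrially encoded genes had a median of 0.17 and took 0.832% of counts at 24 h and 0.908% at 72 h (two-sided exact permutation p = 0.0571, adjusted p = 0.0653).

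Targets and members of BMP and WNT signalling fell in 12 of 25 genes and rose in 1, against 11.9% and 10.3% of all genes. Gata2, a BMP target of XX germ cells, was at 171, 134, 104 and 123 CPM at 24 h and at 25.2, 16.5, 17.4 and 16.2 CPM at 72 h (-2.81 ± 0.24, limma adjusted p = 7.66e-11). Id3 (-1.45 ± 0.17), Msx1 (-1.41 ± 0.26), Msx2 (-2.26 ± 0.53) and Smad6 (-2.12 ± 0.38) on the BMP side and Axin2 (-1.74 ± 0.22) and Lef1 (-1.90 ± 0.19) on the WNT side fell. The receptor Bmpr2 rose (1.43 ± 0.23), and Id1 was not called (-0.19 ± 0.14). Of 19 genes of ERK signalling 6 fell, among them Dusp4 (-2.86 ± 0.51), Spred2 (-2.19 ± 0.31) and Etv5 (-1.82 ± 0.22). Etv1 rose from 2.08 ± 1.01 to 9.47 ± 2.26 CPM (2.06 ± 0.56, limma adjusted p = 0.0282), and lost its call when 1 of 5 of the 8 libraries was left out (24 h replicate 5, 6 or 9 or 72 h replicate 11 or 4, log2 fold change 1.91 to 2.05). NODAL signalling had 2 of 13 genes lower, Gdf3 and Foxh1 (-2.54 ± 0.65), against 11.9% of all genes.

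Among oocyte factors 5 of 19 rose and 5 fell, against 10.3% and 11.9% of all genes. Figla, the regulator of follicle and zona genes, was at 25.5, 25.1, 72.3 and 27.9 CPM at 24 h and at 229, 236, 139 and 216 CPM at 72 h (2.79 ± 0.19, limma adjusted p = 7.53e-14). Lhx8 was at 1.24, 1.42, 3.47 and 1.20 CPM and then at 13.4, 10.8, 12.7 and 18.1 CPM (3.05 ± 0.52, limma adjusted p = 0.000104). In both genes all 72 h libraries lay above the 24 h libraries. Nobox (1.07 to 6.17 CPM, 2.53 ± 0.66), Taf4b (1.21 ± 0.12) and Tmem184a (2.78 ± 0.80) rose as well. Those that fell were Sohlh2 (-1.29 ± 0.14), Nlrp14 (-3.46 ± 0.65), Ooep (-3.14 ± 0.52), E2f8 (-2.27 ± 0.39) and Dppa3. Genes of growing oocytes, Gdf9, Bmp15, Zp1, Zp2 and Zp3, were too low to test, with means of at most 3.90 CPM at 72 h (Gdf9). Sohlh1 was at -0.09 ± 0.31 and not called, and at 3.60 and called with the shared index subtracted.

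Among 31 other genes known for the germ line, 9 rose and 3 fell, against 10.3% and 11.9% of all genes. Tex101, which encodes a surface protein of germ cells, went from 223 ± 116 to 930.1 ± 132 CPM (2.34 ± 0.15), and Taf7l (2.30 ± 0.14), Tktl1 (2.94 ± 0.23) and the linker histone H1f0 (2.75 ± 0.18) rose. The X-linked homeobox genes Rhox5 (-2.85), Rhox6 (-3.32) and Rhox9 (-3.03) fell. The piRNA pathway had 2 higher and 2 lower of 23, against 10.3% and 11.9% of all genes. Tex15 and Mael (178 ± 40.7 to 336 ± 20.8 CPM, 1.00 ± 0.13) were the 2 that rose. With the shared index subtracted the piRNA list had 7 higher and 2 lower, against 12.4% and 13.7% of all genes. Its median went from -0.19 to 0.51. Piwil4 was called at -3.77 ± 0.59, from 19.6, 15.1, 33.2 and 23.1 CPM to 0.535, 1.55, 3.35 and 1.29 CPM, and not called with the shared index subtracted (-1.72). The XY 72 h DMSO libraries held 261 CPM of it.

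The X-linked share of counts was 3.78% ± 0.0614 at 24 h and 3.82% ± 0.169 at 72 h (SD, n = 4, two-sided exact permutation p = 0.743, adjusted p = 0.743). The median log2 fold change of X-linked genes was -0.13, within the range of the autosomes (-0.19 to 0.03), and of 635 X-linked genes 80 were higher (12.6%) and 89 lower (14.02%), against 10.2% and 11.9% of autosomal genes. Xist, the RNA that coats the inactive X chromosome, was at 5.91, 2.84, 7.43 and 3.19 CPM at 24 h and at 66.4, 49.0, 34.1 and 40.8 CPM at 72 h, after 11.6 CPM at 0 h (3.48 ± 0.40, limma adjusted p = 2.66e-08). Every 72 h library was above every 24 h library. Kdm6a, an X-linked demethylase gene, rose (1.30 ± 0.12), and Atrx (-1.46 ± 0.11) and Eif2s3x (-1.30 ± 0.23) fell. Tsix, antisense to Xist, was too low to test.

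Imprinted genes had 2 higher and 7 lower of 35, with a median of -0.17, against 10.3% higher and 11.9% lower of all genes. Phlda2, which is expressed from the maternal allele and restrains placental growth, was at 78.7, 71.8, 43.1 and 94.6 CPM at 24 h and at 3.21, 8.78, 4.01 and 1.29 CPM at 72 h, after 282 CPM at 0 h (-4.34 ± 0.48, limma adjusted p = 5.82e-09). Slc38a4 (-3.33 ± 0.45), Plagl1 (-1.95 ± 0.39) and Snrpn (-1.96 ± 0.26) fell, and Rasgrf1 (3.48 ± 0.65) and Nnat (2.25 ± 0.50) rose. In the apoptosis list 5 of 23 fell and 0 rose, against 11.9% lower and 10.3% higher of all genes. Those that fell were Bik (-3.34 ± 0.59), Bbc3 (-2.14 ± 0.61), Bmf (-1.38 ± 0.31) and Bax (-1.02 ± 0.17) beside Trp53. Of 26 tested genes of motile cilia 6 rose, among them Morn2 (21.2 to 113 CPM, 2.52 ± 0.17), and 3 fell, against 10.3% and 11.9% of all genes. With the shared index subtracted 8 cilia genes were higher and 1 lower, and the median went from 0.24 to 0.97. The stress and dissociation list had 2 higher, Jun (1.43 ± 0.19) and Fosb (2.14 ± 0.59), and 3 lower of 22, among them Asns (-2.25 ± 0.17), against 10.3% and 11.9% of all genes.

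The largest folds upwards were in genes hardly present at 24 h. Gm13269 had 0 counts in all 24 h libraries, and its 72 h libraries held 24.1, 41.8, 23.4 and 34.3 CPM. Against a floor of 3 counts over the group it was at least 103-fold higher. Speer4a1 (at least 80.1-fold higher) and Gm44113 (at least 41.3-fold higher) were at 0 in the same way. Ccdc201 had 3 counts over the 24 h libraries and was 87.8-fold higher at 72 h (95% exact binomial interval 29.6 to 429.7, counting error only). Adcy10, the soluble adenylyl cyclase gene, had 1 count and was 165.5-fold higher (29.1 to 6594). The vitamin D binding protein gene Gc (5.65 ± 0.65) and Myom3 (5.53 ± 0.58) were also among the largest. At the lower end Enpp3, with 3 counts over the 72 h libraries, was 48.9-fold higher at 24 h (16.5 to 238.8), and Ggt1, with 2 counts, 52.5-fold (14.3 to 437). It also held Calcoco2 (-4.72 ± 0.57), Trib3 (-4.20 ± 0.72) and the brain creatine kinase gene Ckb (-4.10 ± 0.41). Of 681 lncRNA genes tested, 185 were called higher (27.2%) and 44 lower (6.46%), against 10.4% and 13.0% of protein-coding genes. The filter keeps a gene that is high in a single group, so genes such as Gm13269 can enter through the 72 h libraries alone. The genes were not matched by level, and the part of the filter in these shares was not tested.

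Among the 10 genes each way with the largest difference of mean CPM, the chaperone gene Hspa5 went from 575 ± 58.9 to 1390.2 ± 83.0 CPM (1.30 ± 0.09), the kinase gene Cdk11b from 914 ± 191 to 2148 ± 181 CPM (1.29 ± 0.12) and the X-linked Ndufa1 of respiratory complex I from 187 ± 59.7 to 853 ± 96.2 CPM (2.33 ± 0.13). The tubulin gene Tubb5 fell from 838 ± 30.8 to 315 ± 46.1 CPM (-1.46 ± 0.10).

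XY germ cells of the same interval were used to ask where the XX change differed. For the difference of the XX and the XY change, 3979 of 15252 genes were called (26.1%), 1514 with a more positive change in XX (9.93%) and 2465 with a more negative one (16.2%). A shift between the pools that is the same in both sexes cancels in this difference.

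Of the 40 meiotic genes that rose in XX, 18 had a more positive change than in XY, and Tex15 a more negative one. Among all 1578 genes called higher in XX, 620 had a more positive change and 15 a more negative one. The same XX libraries chose these genes and enter the difference, so these counts are a description. Terb1 was at 4.05 and 3.67 CPM in XY at 24 and 72 h, and its difference was 3.47 ± 0.56 (limma adjusted p = 3.22e-05). For Dmc1, at 9.31 and 7.06 CPM in XY, it was 2.99 ± 0.43 (limma adjusted p = 8.38e-06). The XY means of both genes were lower than the lowest XX library at 24 h. Syce3 (2.26 ± 0.37), Msh5 (2.11 ± 0.36), Sycp1 (1.54 ± 0.16), Mcmdc2 (3.27 ± 0.47), Zcwpw2 (2.37 ± 0.27), Hormad2 (2.06 ± 0.29), Syce2 (1.96 ± 0.18) and Meiob (1.94 ± 0.37) were also more positive in XX, of which Meiob was not called with the shared index subtracted. Rec8 differed the other way, by -2.31 ± 0.25 (limma adjusted p = 1.46e-07), with 36.4 and 36.8 CPM in XY.

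For other meiotic genes that rose in XX the difference was not called: Sycp3 (0.46 ± 0.19), Rad51ap2 (-0.06 ± 0.83), Rad21l (-0.72 ± 0.71), Ankrd31 (0.30 ± 0.23) and Shoc1 (0.72 ± 0.49). Prdm9 was called at 1.80 ± 0.43 (limma adjusted p = 0.0168), and with the shared index subtracted its difference was 0.01 and not called. Spdya (1.77 ± 0.45) was at 0.75 and not called with the subtraction. With the subtraction 14 of the 40 genes called higher had a more positive change. In the checkpoint list 6 of 19 were more positive in XX and 1 more negative, against 9.93% and 16.2% of all genes. Among the former were Atr (1.87 ± 0.15), H2ax (2.23 ± 0.18), Mdc1 (1.97 ± 0.21) and Topbp1 (1.90 ± 0.18).

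In the G1/S and replication list 6 of 40 genes were more positive in XX and 5 more negative, against 9.93% and 16.2% of all genes. Ccne2 differed by 2.46 ± 0.26 (limma adjusted p = 7.94e-08). Mki67 (3.0 ± 0.23, limma adjusted p = 1.85e-12) had XY means of 320.2 and 50.5 CPM, and XX means of 303 and 371 CPM. In the mitosis list 10 of 35 genes had a more positive change in XX and 2 a more negative one, against the same shares. Within the pluripotency list 7 of 26 were more negative in XX, against 16.2% of all genes: Dppa4 (-3.79 ± 0.22), Sall4 (-3.13 ± 0.32), Dppa2 (-2.56 ± 0.62), Utf1 (-2.43 ± 0.26), Lin28a (-2.31 ± 0.37), Pou5f1 (-2.11 ± 0.32) and Trim71 (-1.80 ± 0.25). Sox2 (-0.98 ± 0.27) and Nanog (0.32 ± 0.67) were not called, though Sox2 was called with the shared index subtracted (-4.05). They were at 41.6 and 5.34 CPM in XY at 72 h.

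In the piRNA list 18 of 23 genes had a more negative change in XX and 0 a more positive one. Of all genes 16.2% were more negative and 9.93% more positive. Spocd1 (-8.49 ± 0.76), Piwil4 (-8.18 ± 0.63) and Mael (-1.71 ± 0.18) were among the 18. Dnmt3l of the methylation list was more negative too (-7.79 ± 0.85), with means at 72 h of 138 CPM for XY and 3.76 CPM for XX. In the cholesterol list 7 of 26 were more negative in XX and 1 more positive, with Srebf2 (-1.62 ± 0.22) on the negative side. Idi1 was not called (-1.45 ± 0.46), but was called with the shared index subtracted (-1.84). In glycolysis 12 of 28 were more negative in XX and 1 more positive, against the same shares of all genes, with Ldha at -3.31 ± 0.28. Xist (3.26 ± 0.51) and Ndufa1 (3.59 ± 0.24) were more positive, and Phlda2 (-5.58 ± 0.74) and Gata2 (-2.83 ± 0.64) more negative.

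**Figure D4:**
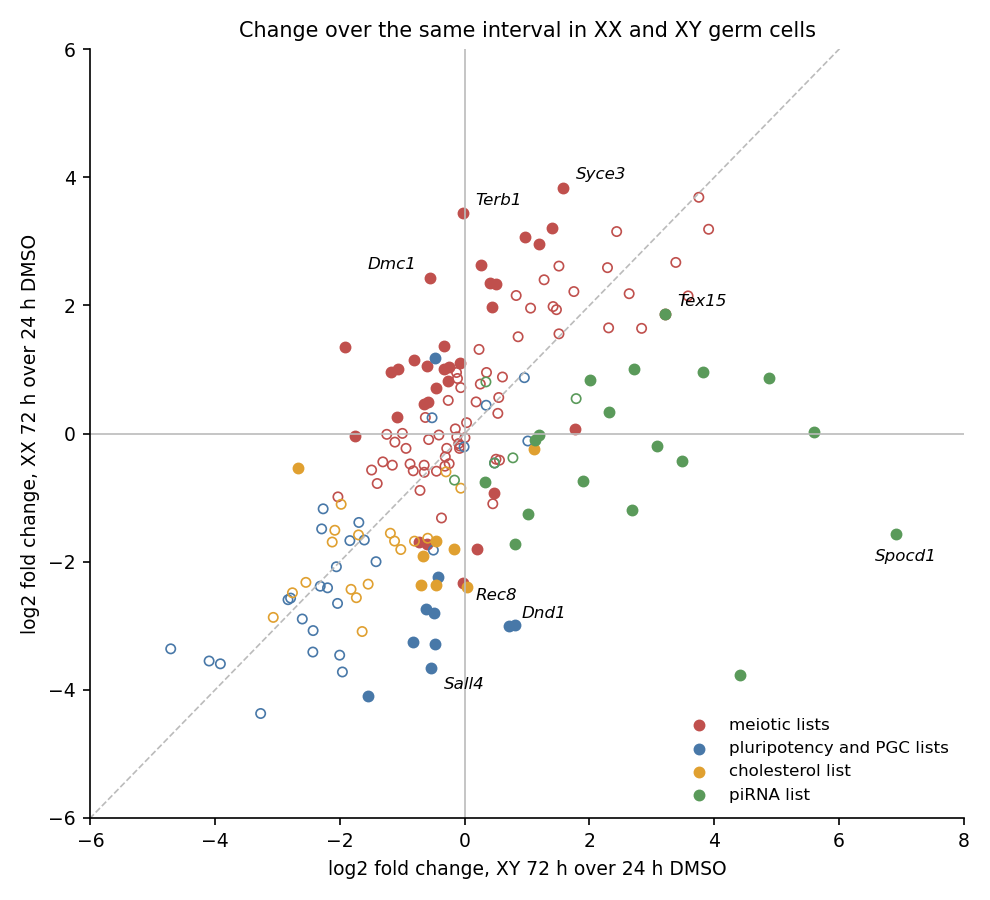
Log2 fold change of 72 h over 24 h in DMSO in XY germ cells (horizontal) and XX germ cells (vertical) for genes of the meiotic, pluripotency and primordial germ cell, cholesterol and piRNA lists; filled points had a called difference between the sexes, open points did not, and the dashed line marks equal change. Terb1, Dmc1 and Syce3 lie above the line, and Rec8, Dnd1, Sall4 and the 18 piRNA genes with a called difference below it.

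Markers of other cells of the gonad were low in both groups. Ovarian somatic markers rose in 10 of 18 genes tested, against 10.3% of all genes. Foxl2, Wt1, Gata4 and Nr2f2 were among those that rose. The ovarian markers took 0.00709% of counts at 24 h and 0.0245% at 72 h (summed 58.6 to 90.2 CPM and 197.7 to 332.4 CPM). Foxl2, which marks pre-granulosa cells, was at 3.73, 1.89, 0 and 0.798 CPM and then at 17.1, 6.71, 6.02 and 7.76 CPM. Testis somatic markers were at 0.00164 and 0.00456%. Of 11 listed 6 were tested, all with positive log2 fold changes (median 1.26), and the steroid enzyme gene Hsd3b1 was called higher (2.27 to 15.3 CPM, 2.86 ± 0.52). Amh and Insl3 were at 0 in all 72 h libraries. Endothelial markers went from 0.0107 to 0.00167%, with Pecam1, which early germ cells express too, lower (-3.92 ± 0.40), and mesonephros markers from 0.00598 to 0.00157%, with Lhx1 and Krt18 lower. Each of these 4 shares separated the groups (two-sided exact permutation p = 0.0286, the smallest that 4 against 4 allow, adjusted p = 0.0457). Blood markers were at 0.00395 and 0.00262% (exact p = 0.0571, adjusted p = 0.0653). With the shared index subtracted, the 72 h share of endothelial markers was 0.00115% and that of mesonephros markers 0.00084%. The part of other cells in the changes of germ cell genes was not tested.

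**Figure D5:**
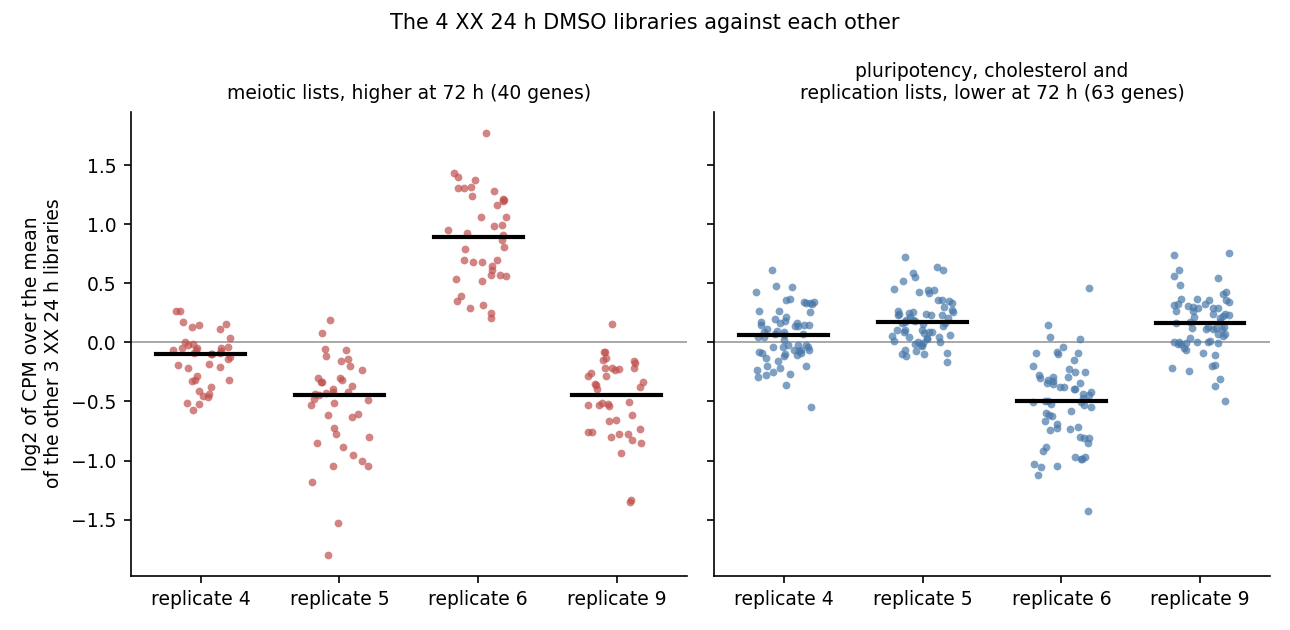
Log2 of the CPM of each XX 24 h library over the mean of the other 3, for 40 meiotic genes higher at 72 h (left) and for the pluripotency, cholesterol and replication genes lower at 72 h (right); points are genes and black bars are medians. Replicate 6 is the only library with a median above 0 on the left (0.89), and on the right it lies lowest.

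The spread within the 24 h group ran along the same genes as the change between the groups. Replicate 6 was the highest of the 4 in all 40 meiotic genes that rose, with a median of 0.89 on the log2 scale over the mean of the other 3 libraries and a summed 9472 CPM against 5949 to 6503 CPM, where the 72 h libraries held 19674 to 20676 CPM. It was the lowest in 15 of 21 pluripotency genes and 18 of 21 replication genes that fell. Over all genes called, it was the highest in 66.5% of those higher and the lowest in 56.8% of those lower. Without it 42 meiotic genes rose and 6 fell of 95 tested, 21 pluripotency genes fell and 22 cholesterol genes fell.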

How the data were processed

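The deposited file holds raw counts per gene of 40 germ cell libraries in 2 pools of 20. Per the study's methods and code, the authors demultiplexed reads with scPipe, aligned them to GRCm39 with Rsubread, assigned them to exons by strand and collapsed them by molecular identifier, so the deposited counts are of molecules and are not normalised. The annotation release is not given in the sources used here. A deposited barcode table (unit other) gave the sample index of each library. Libraries were grouped by their names.

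Genes were kept by filterByExpr over all 10 groups (minimum count 10), scaled by TMM, and fitted with voom and sample quality weights in limma 3.58.1 (edgeR 4.0.16, R 4.3.3) on all 40 libraries, which share 1 estimate of the spread. The treat test used a fold of 1.5 and Benjamini-Hochberg adjustment at 0.05, after the study's methods. The 15252 genes tested held 99.2% of counts. The XX minus XY difference was a contrast of the same fit. For shares of counts the groups were tested with an exact two-sided permutation over libraries, adjusted over 8 classes. Promoters were read from the GRCm39 genome at GENCODE M39 starts, where 40391 of 42422 gene identifiers matched.

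Members and gene lists were chosen with earlier results of these data known. Genes named are members of the 36 lists, the 15 largest fold changes each way without overlap, the 10 largest differences of mean CPM each way and the 10 largest XX minus XY differences each way among genes called in the same direction. On simulated data of 14793 genes, the XX contrast recovered 28% of 100 genes changed 2-fold and 96% of 100 changed 4-fold, with 0 false calls. All other genes were made equal in the XX groups, and the changed genes were taken from those with more counts. No pool difference, shared index or outlying library was drawn. The 0 false calls therefore give no error rate for the real contrast. DESeq2 1.42.0 and other settings were run as alternatives. Some genes of the lists are counted but not reported here by name.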

Additional observations from a re-analysis of the deposited data

Results flagged for a closer look

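A library was far from the other 3 of its group, by Dixon's ratio of the gap to the range above its critical value for 4, in 42 of 474 groups tested (8.86%), where chance flags about 1 in 20 groups. In 6 of the 42 the other 3 libraries were at 0, where the ratio is 1 whatever the value. Among the 459 groups with fewer than 3 libraries at 0, 36 stood out (7.84%). XX 24 h replicate 6 held 26 of the 42. It was high in Amh (0.991 CPM against 0), Ccnb3 (51.5 CPM against 21.7 to 25.2), Ccne2 (255 CPM against 109.7 to 130.4), Cdkn2d (83.2 CPM against 60.7 to 63.8), Dnmt3a (168 CPM against 128 to 133), Dnmt3l (19.3 CPM against 5.20 to 7.16), Figla (72.3 CPM against 25.1 to 27.9), Gm3858 (23.8 CPM against 7.16 to 9.98), Iho1 (23.3 CPM against 11.3 to 13.2), Kash5 (22.3 CPM against 7.58 to 9.45), Lhx8 (3.47 CPM against 1.20 to 1.42), Mael (239 CPM against 154 to 160.4), Meiob (118 CPM against 41.5 to 52.5), Morn2 (29.2 CPM against 17.7 to 18.9), Msh5 (55.5 CPM against 23.9 to 25.5), Rnf212 (22.3 CPM against 10.4 to 11.5), Syce3 (68.4 CPM against 25.9 to 28.8), Sycp3 (809 CPM against 453 to 472), Tex12 (176 CPM against 67.5 to 82.5) and Zcwpw1 (909 CPM against 557 to 597). It was low in Aurka (33.7 CPM against 53.9 to 57.7), Exo1 (109.5 CPM against 143 to 145), Kit (54.5 CPM against 104 to 111), Prdm1 (18.8 CPM against 32.6 to 34.7) and Sox2 (179 CPM against 255 to 269). Its share of Y-linked counts was 0.00189% against 0.000577 to 0.000722% in the others.

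XX 24 h replicate 4 was high in Ccdc201 (0.934 CPM against 0) and Itga6 (67.2 CPM against 37.9 to 40.7), and XX 24 h replicate 9 in Adcy10 (0.399 CPM against 0) and Zp1 (0.798 CPM against 0). Among the 72 h libraries, replicate 7 was high in Rad9b (109.7 CPM against 87.8 to 90.9) and low in Lef1 (14.1 CPM against 23.0 to 24.3), Meiob (235 CPM against 284 to 291), Rad21l (41.5 CPM against 72.5 to 75.5), Slc38a4 (2.01 CPM against 4.28 to 4.65) and Sycp3 (1542 CPM against 1979.7 to 2024). Replicate 11 was high in Aldoa (85.1 CPM against 62.9 to 66.1), Cyp26a1 (0.535 CPM against 0), Foxl2 (17.1 CPM against 6.02 to 7.76) and Gata2 (25.2 CPM against 16.2 to 17.4), and replicate 4 in Dppa2 (3.61 CPM against 0.535 to 0.669) and Zp2 (1.03 CPM against 0). What sets these libraries apart was not tested.

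The change from 24 to 72 h differed between XX and XY germ cells, by limma's treat test of the difference itself, in 36 of the genes for which it is reported. The log2 difference, XX minus XY, was positive in Atr (1.87), Ccne2 (2.46), Dmc1 (2.99), H2ax (2.23), Hormad2 (2.06), Mcmdc2 (3.27), Mdc1 (1.97), Meiob (1.94), Mki67 (3.0), Msh5 (2.11), Ndufa1 (3.59), Prdm9 (1.80), Spdya (1.77), Syce2 (1.96), Syce3 (2.26), Sycp1 (1.54), Terb1 (3.47), Topbp1 (1.90), Xist (3.26) and Zcwpw2 (2.37). It was negative in Dnmt3l (-7.79), Dppa2 (-2.56), Dppa4 (-3.79), Gata2 (-2.83), Ldha (-3.31), Lin28a (-2.31), Mael (-1.71), Phlda2 (-5.58), Piwil4 (-8.18), Pou5f1 (-2.11), Rec8 (-2.31), Sall4 (-3.13), Spocd1 (-8.49), Srebf2 (-1.62), Trim71 (-1.80) and Utf1 (-2.43). Of these, Prdm9, Spdya and Meiob were not called with the shared index subtracted.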

How the results depend on the processing

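Of the alternatives to the counts of genes called, 1 moved them by over 1.5 times. With limma's eBayes test of no change and the fold of 1.5 observed rather than tested, 6789 genes were called in the XX contrast, 3055 higher and 3734 lower, and 7215 for the difference from XY, 3197 more positive and 4018 more negative. The others (edgeR, DESeq2, RLE, library size alone, 2 other filters, no quality weights, fewer libraries, subtraction of the shared index) stayed within 1.5 times. With 1 library left out, 2967 to 3672 genes were called in the XX contrast (1347 to 1702 higher, 1381 to 1970 lower) and 3705 to 4073 for the difference (1379 to 1541 more positive, 2242 to 2532 more negative). With the shared index subtracted, the difference in the Y-linked share turned from -0.000539 to 0.000344 percentage points (-0.000224 without XX 24 h replicate 6, with no subtraction). The method fixed this turn in advance, since the share taken from each XX 24 h library was set from its own Y-linked counts. Dnmt3l (4.36), Sohlh1 (3.60), Spocd1 (3.63) and Gm3858 (2.73) turned to positive log2 fold changes with the subtraction. With a filter of 1 CPM in 4 libraries the median of X-linked genes was 0.00203 in place of -0.13, over more genes, and that of autosomal genes -0.01 in place of -0.10. With RLE they were -0.02 and 0.01, and with the shared index subtracted -0.05 and -0.03. The cause was not tested.

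Some calls in the XX contrast were lost without 1 library, here with the log2 fold change without it and the libraries concerned: Bax (-1.05 to -0.92, XX 24 h replicate 5, XX 24 h replicate 9, XX 72 h replicate 4, XX 72 h replicate 7, XX 72 h replicate 8), Bbc3 (-2.04 to -1.20, XX 24 h replicate 4, XX 24 h replicate 5, XX 72 h replicate 11, XX 72 h replicate 4), Bmf (-1.40 to -1.24, XX 24 h replicate 4, XX 24 h replicate 9, XX 72 h replicate 11, XX 72 h replicate 4, XX 72 h replicate 7), Ccne1 (-1.18 to -1.14, XX 72 h replicate 11, XX 72 h replicate 4), Dnmt3a (-0.90 to -0.88, XX 24 h replicate 6, XX 72 h replicate 4, XX 72 h replicate 7, XX 72 h replicate 8), Etv1 (1.91 to 2.05, XX 24 h replicate 5, XX 24 h replicate 6, XX 24 h replicate 9, XX 72 h replicate 11, XX 72 h replicate 4), Exo1 (-0.96 to -0.83, XX 24 h replicate 9, XX 72 h replicate 8), Fosb (1.46 to 1.84, XX 24 h replicate 5, XX 72 h replicate 11), Hormad2 (0.72 to 0.95, XX 24 h replicate 5, XX 24 h replicate 9, XX 72 h replicate 11), Ldha (-1.13 to -0.94, XX 24 h replicate 9, XX 72 h replicate 8), Mpc1 (1.02 to 1.15, XX 24 h replicate 5, XX 24 h replicate 9, XX 72 h replicate 11, XX 72 h replicate 4), Setdb1 (0.80 to 0.85, XX 24 h replicate 5, XX 24 h replicate 9), Stag3 (0.83 to 0.84, XX 24 h replicate 5, XX 24 h replicate 9, XX 72 h replicate 7), Tmem184a (1.93 to 2.59, XX 24 h replicate 5, XX 72 h replicate 4), Bmpr2 (1.09, XX 24 h replicate 5), Crabp1 (-1.01, XX 72 h replicate 8), Eif2s3x (-1.02, XX 72 h replicate 8), Foxh1 (-1.91, XX 72 h replicate 8), Itga6 (1.06, XX 24 h replicate 9), Mcmdc2 (1.19, XX 24 h replicate 9), Msx1 (-1.17, XX 72 h replicate 8), Nnat (1.82, XX 72 h replicate 11), Syce1 (0.85, XX 24 h replicate 5), Tex11 (0.93, XX 24 h replicate 5). For the difference from XY these were Prdm9 (1.52 to 1.79, XX 24 h replicate 5, XY 24 h replicate 3, XY 24 h replicate 5), Spdya (1.56 to 1.72, XX 24 h replicate 5, XX 24 h replicate 9, XY 24 h replicate 2, XY 24 h replicate 4). DESeq2 did not call 13 genes of the text that limma called, Meiosin, Hormad2, Exo1, Ldha and Pkm among them, nor the differences of Prdm9 and Spdya. Other settings ended calls in the XX contrast for Bax, Bmf, Dnmt3a and Exo1 (RLE), Hormad2 (edgeR, library size alone, the 1 CPM filter, no quality weights), Mpc1 (the 1 CPM filter, no filter, no quality weights), Bbc3 and Dnmt3a (no filter), Exo1 (no quality weights) and Bax and Dnmt3a (only the libraries of the contrast). For the difference from XY they ended those of Gata2 and Prdm9 (no filter), Prdm9 (no quality weights) and Spdya (library size alone). Genes given as not called were called with RLE (Lin28b, Sun1), with edgeR (Chek2, Spocd1, and Idi1 for the difference), without XX 24 h replicate 4 (Sun1), without XY 24 h replicate 5 (Idi1 for the difference) and with the eBayes test (Chek2, Insig1, Lin28b, Mdc1, Mei4, Sc5d, Spocd1, Sun1 and Topbp1, and Idi1 and Sox2 for the difference). No paired analysis was possible because the XX 24 h and 72 h groups share 1 replicate number.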
